A study of Mus musculus with 20 samples.

Results

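The genes described here are the subunits of the mitochondrial respiratory chain and ATP synthase, with the related genes that share their symbols. They are 120 of 55891 genes in a count table of cultured mouse kidney tubule cells. Members were chosen by symbol alone: names that begin with Nduf, Uqcr, Cox4 to Cox8 or Atp5, the genes Sdha, Sdhb, Sdhc and Sdhd, and the protein-coding genes of mitochondrial DNA. They comprise 13 mitochondrially encoded subunits and 83 nuclear subunits. By symbol, 38 of the 83 were placed in complex I (Ndufa4 among them), 4 in complex II, 8 in complex III, 17 in complex IV and 16 in complex V. The remaining members are 8 Ndufaf assembly factors of complex I, 12 pseudogenes and the related genes Atp5s and Cox7a2l. Also kept apart from the subunits are a second identifier of Atp5o and Ndufb1-ps, which the annotation used, GENCODE M21, lists as noncoding. Of the 120 members, 102 passed the filter on low counts and were tested, including 77 of the nuclear subunits. The other 18 did not pass, of which 8 had no count in any library.

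Complexes I and II pass electrons from NADH and succinate to ubiquinone, complex III passes them on to cytochrome c, and complex IV gives them to oxygen. Complexes I, III and IV pump protons across the inner membrane, and complex V, the ATP synthase, uses that gradient to make ATP. Most subunits are encoded in the nucleus, while a few core subunits of complexes I, III, IV and V are encoded in mitochondrial DNA and complex II is wholly nuclear. Tubule cells of the kidney are known for many mitochondria, since reabsorption of salt and solutes depends on ATP.

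RNA was sequenced in 20 libraries from primary renal tubular epithelial cells of the mouse line B6.129-Ptprz1tm1Nmo, which carries a targeted allele of the receptor tyrosine phosphatase gene Ptprz1. There were 5 libraries in each of 4 groups: KO with LPS+IFNγ, KO control, het with LPS+IFNγ and het control, where the heterozygous (het) cells also carry the targeted allele. LPS at 100 ng/mL and IFNγ at 10 ng/mL, which act through Toll-like receptor 4 and the interferon-gamma receptor, were given together for 24 h, and control cells were untreated. The medium of all groups held serum, EGF, prostaglandin E2, triiodothyronine, hydrocortisone, epinephrine and insulin-transferrin-selenite, and the labels give no age of the animals. The design asks how loss of Ptprz1 alters tubule cells at rest and under inflammatory stimulation. The labels name 10 animals, each with 1 stimulated and 1 control library, and list animals 5 and 7 under both genotypes. An animal cannot be both KO and het, so some genotype or animal labels of these libraries must be wrong. Which ones is not known, and these libraries are kept as labelled in the values between KO and het cells.

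Total counts per library were 12899528 to 20411411. The targeted gene Ptprz1 had 0 to 7 counts in KO LPS+IFNγ libraries and 0 to 6 in KO control libraries, against 0 to 4 in het LPS+IFNγ and 0 to 4 in het control libraries. Its highest counts, 7 and 6, were in the 2 libraries labelled KO replicate 4, while the other KO libraries had 0 to 1. Both libraries labelled het replicate 5 had 0 counts, as did 3 of the other 8 het libraries. Among these 3 were het LPS+IFNγ replicate 3 (animal 5) and het control replicate 3 (animal 7), the animals listed under both genotypes. At this depth Ptprz1 does not separate the genotype labels, and those of KO replicate 4 go against it. Stimulation labels were checked by Nos2, the inducible nitric oxide synthase: 8 of 10 stimulated libraries had 1256 to 3567 CPM (counts scaled to a common library total), and 8 of 10 controls had no more than 0.219 CPM. The libraries labelled KO LPS+IFNγ replicate 4 and het LPS+IFNγ replicate 5 had 0 counts of Nos2, while those labelled KO control replicate 4 and het control replicate 5 had 203 and 82.9 CPM. These 4 libraries, from animals 8 and 4, go against their stimulation labels. Tests were therefore run with all 20 libraries as labelled and with the 16 others, and the 20-library values between KO and het cells hold all 4 of them. CPM values use TMM, a correction of library size, and log2 fold changes are given ± SE from edgeR's quasi-likelihood test with Benjamini-Hochberg adjustment over all genes tested. A gene was called at an adjusted p under 0.05.

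The cells were checked against 8 tubular epithelial markers (Cdh1, Cdh16, Epcam, Krt8, Krt18, Krt19, Pax8 and Pax2), which were all present and summed to 322 to 1709 CPM over the libraries. Markers of other cells varied between animals. The summed fibroblast markers were above these epithelial markers in all libraries except those of animals 1 and 9 and KO LPS+IFNγ replicate 1. Group medians of the fibroblast sums were 911 to 1348 CPM, against 586.5 to 755 CPM for the epithelial sums. The 7 fibroblast markers summed to 33.4 CPM in het LPS+IFNγ replicate 1 and 53.7 CPM in het control replicate 1 (both animal 1), and to 12750 CPM in KO LPS+IFNγ replicate 3 and 14710 CPM in het control replicate 3 (both animal 7). The 7 leukocyte markers summed to 196 CPM in het LPS+IFNγ replicate 4 and 299 CPM in het control replicate 4 (both animal 9), against 4.24 to 79.0 CPM elsewhere, with the T cell marker Cd3e at 0 throughout. In such bulk RNA, fewer cells of a type and less RNA per cell cannot be told apart.

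The mitochondrially encoded mRNAs were far more abundant than the nuclear ones, and their levels in the table were split with near-identical nuclear copies. The table lists 7 nuclear copies of mitochondrial protein genes that share at least 97.2% of their 31-base stretches with the mitochondrial gene, and together they held 17.8% of the combined counts. The copy of mt-Co2, Gm28661, was listed with more counts than mt-Co2 itself: mt-Co2, a core subunit of complex IV, averaged 671 CPM as listed and 2337 CPM with its copy. For mt-Co3 the listed mean was 934 CPM and the combined mean 2246 CPM, and for mt-Atp6, the proton-channel subunit of complex V, 1208 and 1869 CPM. The sources used here do not state how reads were divided between a gene and its copy, so levels and sums of these genes are given with copies, while their fold changes and tests are those of the genes as listed unless copies are named. Among nuclear members, Ndufb4 and the pseudogene Ndufb4c share their sequence in the same way, and their single values of 11.5 and 16.9 CPM are uncertain. Atp5g2, a gene of the c subunit of ATP synthase, at 4.78 CPM, shares 37.5% of its stretches with Gm10175, at 71.4 CPM, and its value is uncertain too.

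On a scale of CPM per kilobase of transcript, mt-Co1, the catalytic subunit of complex IV, had the highest level at 5484, followed by mt-Co2 at 3416, mt-Co3 at 2865 and mt-Atp6 at 2744. The only mitochondrial subunit encoded on the light strand, mt-Nd6 of complex I, was lowest at 31. Of the other complex I mRNAs, mt-Nd4 was at 1312, mt-Nd1 at 1185, mt-Nd2 at 789, mt-Nd5 at 699, mt-Nd4l at 548 and mt-Nd3 at 454, and mt-Atp8 of complex V was at 751. The complex III subunit mt-Cytb was at 1945 on this scale. The most abundant nuclear mRNA was Atp5b, the catalytic beta subunit of ATP synthase, at 475 CPM per kilobase. Its partner Atp5a1 was at 224, the complex IV subunit Cox4i1 at 308, and the complex I core subunit Ndufs1 at 35.4. The flavoprotein Sdha of complex II was at 80.2 and its membrane anchor Sdhc at 28.7, while the core proteins Uqcrc1 and Uqcrc2 of complex III were at 81.8 and 67.8.

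Where complex IV has tissue-specific isoforms, the cells expressed the general form. Cox4i1 averaged 229 CPM and Cox4i2, the isoform of lung and of low oxygen, 0.0556 CPM. Cox6a1 averaged 99.8 CPM and its heart and muscle counterpart Cox6a2 0.0427 CPM. Cox7a2 averaged 47.2 CPM and the supercomplex factor Cox7a2l 105 CPM, beside 0.591 CPM for the muscle form Cox7a1. Cox8a averaged 87.0 CPM, whereas Cox8b and Cox7b2 had no count in any library and Cox8c had 1 count in all. Ndufa4l2, a hypoxia-induced relative of Ndufa4, averaged 0.181 CPM. Cox6b2, the testis form of a subunit that links the complex IV dimer, was present at 7.82 CPM beside 105 CPM for Cox6b1.

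Summed over the 13 mitochondrially encoded genes with their copies, the mRNA level varied far more between animals than between groups. In KO LPS+IFNγ replicates 1 to 5 the sums were 14423, 18169, 19814, 24093 and 37137 CPM, and in KO control replicates 1 to 5 they were 17981, 20270, 21178, 22576 and 38046 CPM. In het LPS+IFNγ replicates 1 to 5 they were 19055, 18829, 16980, 24318 and 28043 CPM, and in het control replicates 1 to 5 they were 21484, 18815, 18136, 29673 and 24481 CPM. The 4 groups overlapped throughout, and the highest value in each KO group came from animal 10 (replicate 5). The nuclear subunits were much more even. Their sums were 6002 ± 514 CPM in KO LPS+IFNγ and 6253 ± 513 CPM in KO control, against 6225 ± 344 CPM in het LPS+IFNγ and 6754 ± 548 CPM in het control (SD, n = 5 each). With 16 libraries they were 5838 ± 418 CPM in KO LPS+IFNγ and 6234 ± 590 CPM in KO control, against 6227 ± 397 CPM in het LPS+IFNγ and 6907 ± 493 CPM in het control (SD, n = 4 each).

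**Figure D1:**
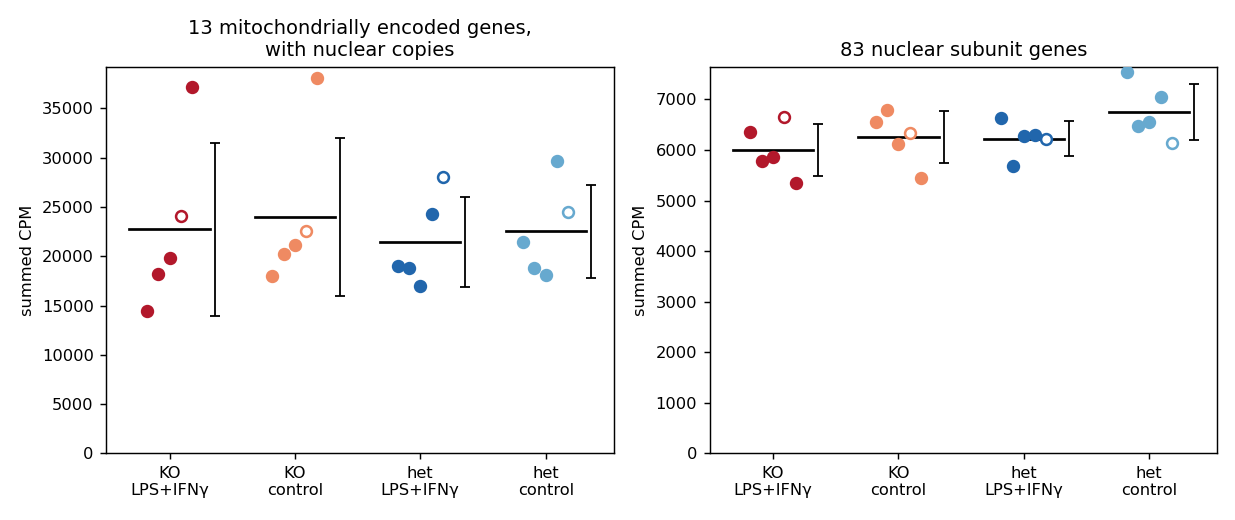
Summed CPM of the 13 mitochondrially encoded genes with their nuclear copies (left) and of the 83 nuclear subunit genes (right) by group; points are libraries, lines are means and bars are SD (n = 5), with open points for the 4 libraries that go against their stimulation labels. Mitochondrial sums spread from 14423 to 38046 CPM, and KO replicate 5 stands highest in both states, while nuclear sums lie between 5340 and 7540 CPM.

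The ratio of mitochondrially encoded to nuclear subunit counts was 3.87 ± 1.8 in KO LPS+IFNγ and 3.94 ± 1.73 in KO control, against 3.45 ± 0.743 in het LPS+IFNγ and 3.34 ± 0.695 in het control (SD, n = 5 each). With 16 libraries it was 3.93 ± 2.07 in KO LPS+IFNγ and 4.04 ± 1.98 in KO control, against 3.19 ± 0.519 in het LPS+IFNγ and 3.18 ± 0.686 in het control (SD, n = 4 each). Animal 10 gave the highest ratios, 6.95 with LPS+IFNγ and 6.98 as control, since its mitochondrial sums were the highest and its nuclear sums, 5340 and 5454 CPM, the lowest of their groups. As listed, without copies, the ratio changed between the states of an animal by −0.27 (animal 3) to 0.29 (animal 7, across genotypes) in log2. Control libraries ran from 2.24 to 3.48 on that ratio, apart from animal 10 at 5.70. Much of the spread between animals was thus that of animal 10. Complex by complex, nuclear sums kept a fixed order in the groups: complex V was highest at 2375 CPM in KO LPS+IFNγ and 2540 CPM in KO control, against 2472 CPM in het LPS+IFNγ and 2709 CPM in het control. Complex I followed at 1729 to 1904 CPM, then complex IV at 923 to 1035 CPM, complex III at 542 to 608 CPM and complex II at 433 to 497 CPM, as ranges of group means.

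Most nuclear subunits had slightly lower levels with LPS+IFNγ in KO and in het cells, but with the libraries as labelled no member passed the test. In all 20 libraries edgeR called 0 of 102 members in KO cells and 0 of 102 in het cells, where 0.0% of the 14568 genes tested were called in each comparison. At an unadjusted p under 0.05, 5 members in KO and 20 in het passed, of 1307 and 1981 genes. DESeq2 called 0 members in KO cells, where 0.789% of genes were called, 0.755% higher and 0.0343% lower. In het cells it called 2 members, Atp5mpl and Ndufa2, both lower, where 3.32% of genes were called, 0.329% of them lower and 2.99% higher as shares of all genes. Limma-voom called 0 members in either, where 0.0% of genes were called. In the 16 libraries, 1 member rose in KO cells, the complex I subunit Ndufs3, where 5.76% of 14630 genes were called, 4.81% higher and 0.95% lower. In het cells 4 members fell, Ndufb11, Ndufa2, Ndufa4 and Cox6b2, where 7.15% of genes were called, 1.48% lower and 5.67% higher, and no member rose. DESeq2 in the 16 libraries called 9 members in KO cells, 1 higher and 8 lower, where 9.03% of genes were called, 6.49% higher and 2.54% lower. In het cells it called 14, all lower, where 11.4% of genes were called, 7.81% higher and 3.64% lower. With DESeq2's size factors in edgeR, 3 members were called in KO cells, 1 higher and 2 lower, where 5.71% of genes were called, 4.68% higher and 1.04% lower. The same setting called 4 members lower in het cells, where 7.25% of genes were called, 5.6% higher and 1.64% lower.

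Blocking by animal, which sets each stimulated library against the control of its own animal (across genotypes for animals 5 and 7), moved these counts by more than 1.5 times. In the 16 libraries with that block, edgeR called 25 of 102 members lower in het cells, where 7.96% of genes were called lower, and 1 higher (10.7% of genes). The 25 were 14 of 37 tested nuclear subunits of complex I (Ndufa4 included, by symbol), 2 of 4 of complex II, 1 of 8 of complex III, 2 of 12 of complex IV and 6 of 16 of complex V. None of the 13 mitochondrially encoded genes was among them. In KO cells 2 members were called lower, Ndufa4 and Cox6b2 (5.06% of genes), and 2 higher, Ndufs3 and Ndufb1-ps (8.39% of genes). With all 20 libraries the block called 0 members in either genotype. The difference between the KO and het responses was called for 0 members in all 20 libraries, in the 16 libraries and with the block, where 0.0% of genes were called, so the responses were not shown to differ. At an unadjusted p under 0.05 that difference passed for 3, 3 and 9 members, of 138, 224 and 498 genes (the block in 16 libraries), and DESeq2 called 0 members in the 20 libraries, where 0.00686% of genes were called. The lowest p-values in 20 libraries were those of Ndufa2, Ndufv3, a small subunit of complex I, and Uqcrh, the hinge protein of complex III. Their KO minus het responses were 0.31 ± 0.10, 0.32 ± 0.13 and 0.25 ± 0.11 (edgeR, adjusted p = 0.9998 each).

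The 8 lowest p-values of the blocked het comparison belonged to Ndufa4, Cox6b2, Ndufv1, Cox6a1, Atp5g3, Ndufb7, Ndufb11 and Ndufb8. Ndufv1, the subunit that binds NADH, was lower in het LPS+IFNγ by −0.35 ± 0.07 (edgeR, adjusted p = 0.0122). Atp5g3, which encodes the c subunit of the ATP synthase ring, was lower by −0.40 ± 0.08 (edgeR, adjusted p = 0.0142). Cox6a1, a structural subunit of complex IV, was lower by −0.34 ± 0.07 (edgeR, adjusted p = 0.0136). Ndufb7 and Ndufb8, accessory subunits of the membrane arm of complex I, had log2 fold changes of −0.36 and −0.35, with adjusted p of 0.0192 and 0.0199 in edgeR. Without the block none of these 5 was called in the 16 libraries, with adjusted p of 0.0661 to 0.211. Sdha and Sdhc of complex II also passed with the block, at −0.30 ± 0.07 and −0.32 ± 0.08 (edgeR, adjusted p = 0.0233 and 0.0325).

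As a group, the 77 tested nuclear subunits had a median log2 fold change of −0.054 in KO cells, where 57 were below 0, and of −0.13 in het cells, where 67 were below 0. Over all genes tested these medians were −0.0027 and −0.015. In the 16 libraries the medians were −0.080 in KO (62 of 77 below 0) and −0.19 in het (66 of 77 below 0), beside −0.0059 and −0.026 over all genes. In complex V of het cells all 16 subunits were below 0 with both sets of libraries, with medians of −0.18 and −0.20, and in KO cells 15 and 16 were below 0, with medians of −0.098 and −0.14. With the block by animal, 12 and 13 of the 16 were below 0 in KO cells, with medians of −0.055 and −0.077. Complex III was nearest to 0 in het cells, with medians of −0.061 and −0.070. The 8 assembly factors had medians of 0.035 and 0.040 in KO and 0.015 and −0.010 in het cells.

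Cell type markers were read beside these values. Of 8 proximal tubule markers 5 were tested, and 5 of 5 were below 0 with LPS+IFNγ in het cells, with medians of −0.90 in 20 and −0.95 in 16 libraries. In KO cells 2 and 3 of the 5 were below 0, with medians of 0.026 and −0.12. Of 7 fibroblast markers 6 were tested, and 6 of 6 were below 0 in het cells, with medians of −1.41 and −2.35, against 2 of 6 in KO cells, with medians of 0.75 and 0.97. Both genotypes hold libraries of animal 7: het control replicate 3 and KO LPS+IFNγ replicate 3 had the highest fibroblast sums, 14710 and 12750 CPM. Within het animals 1, 2 and 9 these sums were 33.4, 911 and 450 CPM with LPS+IFNγ, against 53.7, 978 and 541 CPM as control. In KO animals 3, 6 and 10 they were 971, 1194 and 1202 CPM, against 1181, 1217 and 1348 CPM. None of these markers was called in either set of libraries, and with the block by animal in 16 libraries 2 of each list were called lower in het cells and 1 fibroblast marker lower in KO cells. Summed proximal tubule markers were at 225 CPM with LPS+IFNγ against 626 CPM as control in animal 1, and at 262 CPM against 538 CPM in animal 9. Their part in the subunit values was not tested.

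Within animals, the summed nuclear subunits of het animals 1, 2 and 9 changed by −0.18, −0.19 and −0.16 (log2, LPS+IFNγ over control). In KO animals 3, 6 and 10 the changes were −0.046, −0.081 and −0.031, so the 3 het values lie below the 3 KO values. The difference was not tested on the sums. Animals 5 and 7, listed under both genotypes, gave −0.11 and −0.16, and animals 4 and 8, whose libraries go against their labels, gave 0.018 and 0.072. For complex V alone the het changes were −0.25, −0.20 and −0.18 and the KO changes −0.078, −0.10 and −0.065. For complex III they overlapped, at −0.0038, −0.15 and −0.034 in het and −0.061, −0.060 and −0.010 in KO animals. The group sums overlapped between stimulated and control cells for each complex in all 20 libraries. In the 16 libraries they did not overlap for complex I in het cells, at 1652 to 1827 CPM with LPS+IFNγ against 1837 to 2042 CPM as control. That gap depends on Ndufa4, a complex IV subunit counted here under complex I by its symbol. Het LPS+IFNγ replicate 1 held 52.6 of its 1805 CPM in Ndufa4, and het control replicate 2 held 114 of 1837 CPM. Without Ndufa4 these groups overlap. The sums also did not overlap for complex II in KO cells, at 423 to 434 CPM against 441 to 461 CPM. Nor did they for the mitochondrially encoded complex V genes as listed in het cells, at 1022 to 1164 CPM against 1301 to 1673 CPM.

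**Figure D2:**
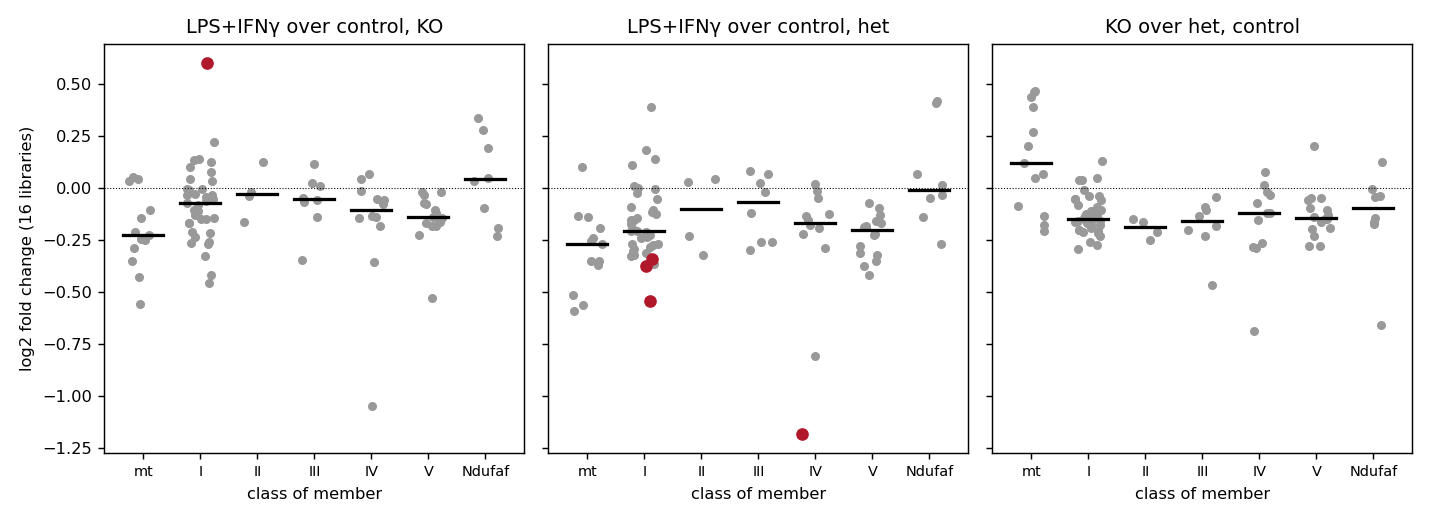
Log2 fold changes of tested members in the 16 libraries by class (mitochondrially encoded, nuclear subunits of complexes I to V, Ndufaf assembly factors); each point is a gene, bars are class medians and red points passed edgeR's test at an adjusted p under 0.05. Nuclear subunit classes sit below 0 in the 3 comparisons shown, with het medians from −0.070 to −0.21, while mitochondrially encoded genes lie mostly above 0 for KO over het controls, where KO control replicate 5 is included.

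Ndufs3, a core subunit of the arm of complex I that carries the iron-sulfur clusters, was higher with LPS+IFNγ where most subunits were lower. It was at 60.4, 63.0, 56.6, 40.4 and 76.5 CPM in KO LPS+IFNγ replicates 1 to 5 and at 41.8, 42.8, 40.8, 44.6 and 43.8 CPM in KO control replicates 1 to 5. In het LPS+IFNγ replicates 1 to 5 it was at 74.8, 56.3, 48.7, 70.8 and 43.0 CPM, and in het control replicates 1 to 5 at 50.9, 44.7, 46.0, 50.1 and 45.4 CPM. The low stimulated values, 40.4 and 43.0 CPM, are those of the libraries that go against their labels. Without these, KO LPS+IFNγ libraries lay above all KO controls, while the het groups overlapped. The log2 fold change in KO cells was 0.48 ± 0.15 in 20 libraries (edgeR, adjusted p = 0.338) and 0.60 ± 0.13 in 16 (adjusted p = 0.00973). In het cells it was 0.39 ± 0.13 in 16 libraries (edgeR, adjusted p = 0.0897) and 0.38 ± 0.11 with the block by animal (adjusted p = 0.0399). On the opposite strand Ndufs3 overlaps Kbtbd4, which averaged 27.1 CPM and changed by 0.36 ± 0.11 in KO and 0.071 ± 0.11 in het cells in 16 libraries (edgeR, adjusted p = 0.0677 and 0.763). The sources used here do not state whether counting used strand, so reads of the pair may not be fully separated.

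Ndufa4, counted here under complex I by its symbol but found as a subunit of complex IV, had the lowest p of the members that fell in the blocked het comparison. It was at 79.4, 78.7, 69.3, 105 and 71.0 CPM in KO LPS+IFNγ replicates 1 to 5 and at 108, 117, 98.7, 80.5 and 87.0 CPM in KO control replicates 1 to 5. In het LPS+IFNγ replicates 1 to 5 it was at 52.6, 78.0, 81.0, 81.0 and 101 CPM, and in het control replicates 1 to 5 at 102, 114, 98.0, 112 and 92.6 CPM. The high stimulated values, 105 and 101 CPM, are those of the libraries that go against their labels, and the 16 others do not overlap between states in either genotype. The log2 fold change was −0.28 ± 0.15 in KO and −0.40 ± 0.15 in het cells in 20 libraries (edgeR, adjusted p = 0.626 and 0.234). In 16 libraries it was −0.46 ± 0.13 in KO (edgeR, adjusted p = 0.0591) and −0.54 ± 0.13 in het (adjusted p = 0.0212). With the block by animal it passed in both, at −0.36 ± 0.09 in KO and −0.66 ± 0.09 in het cells (edgeR, adjusted p = 0.0404 and 0.0027).

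AA467197, a gene outside the members that was named after its values were seen, encodes the mouse counterpart of human C15orf48 (NMES1), a relative of NDUFA4 known in human cells to take its place in complex IV during inflammation. Its transcript unit also holds the microRNA gene Mir147, and in human cells miR-147b from this locus is known to lower NDUFA4. AA467197 was at 105.5, 80.6, 64.2, 5.31 and 53.4 CPM in KO LPS+IFNγ replicates 1 to 5 and at 1.52, 1.95, 0.877, 34.7 and 0.730 CPM in KO control replicates 1 to 5. In het LPS+IFNγ replicates 1 to 5 it was at 174, 67.5, 75.9, 30.3 and 1.98 CPM, and in het control replicates 1 to 5 at 0.671, 1.09, 2.52, 0.769 and 12.7 CPM. The 16 libraries do not overlap between states. The log2 fold change was 5.88 ± 0.60 in KO and 6.11 ± 0.60 in het cells in these 16 (edgeR, adjusted p = 1.27e-05 and 8.74e-06). In all 20 libraries it was 2.96 in KO and 4.3 in het cells, and neither was called. Whether AA467197 or miR-147 bears on Ndufa4 in these cells was not tested, and miR-147 itself was not analysed here.

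The sequences of the pair are shown because Ndufa4 and the Mir147 host gene moved in opposite directions. The Mir147 hairpin (RefSeq, GRCm38.p6) lies at chr2:122640803-122640881 on the plus strand. The stretch of Ndufa4 (gene on chromosome 6) covers positions 347 to 376 of a 468-base GENCODE transcript, after its coding sequence at 157 to 303. Capitals mark 8 bases of the hairpin and their reverse complement in Ndufa4, the least frequent of 4 tied runs.
Mir147 hairpin: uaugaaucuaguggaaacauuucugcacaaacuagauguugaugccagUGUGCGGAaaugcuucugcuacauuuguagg
Ndufa4 stretch: ttcagaagccaTCCGCACAattttccactt
A run of 8 was the longest complement between the pair, and 4 different runs tied at that length. Another of these, TTTCCACT from position 368, lies in the same stretch and is not marked. The letters TCCGCACA were in all 4 coding transcripts of Ndufa4 and in transcripts of 2.0% of 21951 protein-coding genes, and the other tied runs were in 8.02 to 15.3%. Such a match describes the letters, and binding was not tested.

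The other members that fell in het cells in the 16 libraries were smaller in effect or low in level. Ndufa2, an accessory subunit of complex I, was at 33.7 ± 2.64 CPM in het LPS+IFNγ against 40.9 ± 2.57 CPM in het control, and at 34.7 ± 2.26 CPM in KO LPS+IFNγ against 33.9 ± 1.81 CPM in KO control (SD, n = 5 each). Het control libraries lay above the libraries of the other 3 groups, from 38.2 to 43.6 CPM against 30.9 to 37.7 CPM. Its log2 fold change in het cells was −0.28 ± 0.07 in 20 libraries (edgeR, adjusted p = 0.112) and −0.34 ± 0.08 in 16 (adjusted p = 0.0206), and in KO cells 0.04 ± 0.08 in 16 (adjusted p = 0.887). The KO response minus the het response was 0.39 ± 0.12 in 16 libraries, which did not pass (edgeR, unadjusted p = 0.00539, adjusted p = 1.0).

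Ndufb11, an accessory subunit of the membrane arm of complex I, was at 36.5 ± 2.71 CPM in KO LPS+IFNγ against 41.3 ± 4.63 CPM in KO control, and at 35.3 ± 4.53 CPM in het LPS+IFNγ against 42.8 ± 2.93 CPM in het control (SD, n = 5 each). In 16 libraries its log2 fold change was −0.37 ± 0.09 in het (edgeR, adjusted p = 0.0174) and −0.26 ± 0.09 in KO cells (adjusted p = 0.111). In 20 it was −0.28 ± 0.10 in het and −0.18 ± 0.10 in KO cells (edgeR, adjusted p = 0.201 and 0.63). Cox6b2 was at 2.99, 6.27, 4.47, 6.93 and 8.05 CPM in KO LPS+IFNγ replicates 1 to 5 and at 7.58, 8.18, 13.97, 4.50 and 15.3 CPM in KO control replicates 1 to 5. In het LPS+IFNγ replicates 1 to 5 it was at 5.64, 5.71, 3.65, 3.83 and 9.54 CPM, and in het control replicates 1 to 5 at 9.26, 14.04, 6.84, 12.7 and 7.12 CPM. In the 16 libraries the het groups did not overlap, and the KO groups did. Its log2 fold change there was −1.18 ± 0.34 in het (edgeR, adjusted p = 0.0484) and −1.05 ± 0.34 in KO cells (adjusted p = 0.096), and with the block by animal it passed in KO as well, at −1.06 ± 0.20 (adjusted p = 0.0106). In 20 libraries it was −0.81 ± 0.35 in het and −0.78 ± 0.35 in KO cells (edgeR, adjusted p = 0.318 and 0.528). Ndufa2 and Ndufb11 overlap Tmco6 and Rbm10 on the opposite strand, and neither neighbour was called. Ndufa4 and Cox6b2 overlap no other gene in the annotation used.

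**Figure D3:**
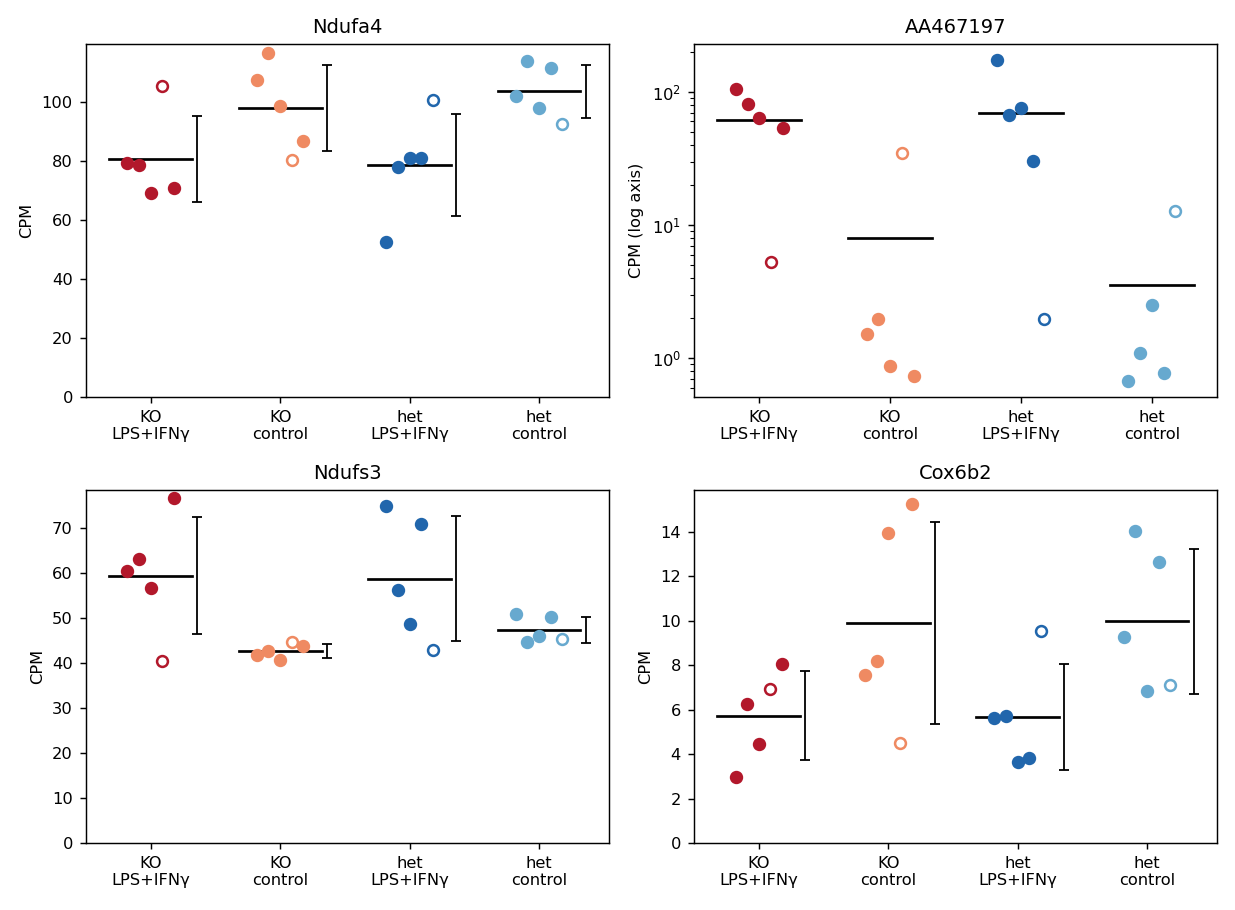
CPM of Ndufa4, Ndufs3, Cox6b2 and the Ndufa4 relative AA467197 (log axis) by group; points are libraries, lines are means, bars are SD (n = 5, not drawn for AA467197), and open points are the 4 libraries that go against their stimulation labels. Ndufa4 is at 105 and 101 CPM and AA467197 at 5.31 and 1.98 CPM in the open stimulated libraries.

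In the 20 libraries no member's groups stood apart under stimulation in KO cells, where 0.35% of genes were higher and 0.275% lower without overlap. In het cells 6 members were lower in each LPS+IFNγ library than in each control (0.336% of genes), Atp5h, Atp5j2, Atp5mpl, Ndufa2, Ndufb5 and Ndufb6, and none higher (0.329% of genes). These groups follow the labels and include het replicate 5 (animal 4), where the lower library for these members had 0 counts of Nos2. In the 16 libraries 22 members were lower in het cells without overlap (3.86% of genes) and none higher (7.25% of genes), while in KO cells 8 were lower (7.1% of genes) and 3 higher (10.6% of genes). Atp5mpl, a small membrane subunit of ATP synthase, was at 22.5 to 28.3 CPM in het LPS+IFNγ libraries and 31.1 to 34.0 CPM in het controls. Its log2 fold change in het cells was −0.34 ± 0.11 (edgeR, unadjusted p = 0.00453, adjusted p = 0.151), and DESeq2 called it with an adjusted p of 0.0449. In 16 libraries it was −0.37 ± 0.12 (edgeR, adjusted p = 0.091). Ndufb5, an accessory subunit of complex I, had −0.22 ± 0.07 in het cells in 20 libraries (edgeR, unadjusted p = 0.00677, adjusted p = 0.172) and −0.23 ± 0.09 in 16 (adjusted p = 0.154). In KO cells the lowest p-values after Ndufs3 were those of the complex I subunits Ndufa11, at −0.25 ± 0.10, and Ndufa3, at −0.17 ± 0.07 (edgeR, adjusted p = 0.423 and 0.49).

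None of the mitochondrially encoded genes was called under stimulation, with or without their copies, in 20 or 16 libraries. In 20 libraries, as listed, their median log2 fold change was −0.19 in KO (10 of 13 below 0) and −0.14 in het cells (11 of 13 below 0). In 16 libraries it was −0.23 in KO and −0.27 in het cells, where 12 of 13 were below 0. With copies added, the lowest p in het cells was that of mt-Nd3, a small membrane subunit of complex I, at −0.62 ± 0.28 in 16 libraries (edgeR, unadjusted p = 0.0411, adjusted p = 0.222). This value rests in part on het LPS+IFNγ replicate 1: the log2 ratio of group means with copies was −0.62 with it and −0.35 without it. The fold change of mt-Co1 was near 0 with wide error, at 0.04 ± 0.40 in KO and 0.11 ± 0.40 in het cells in 16 libraries. The SEs of these genes, 0.22 to 0.40 in 16 libraries, were larger than those of the nuclear subunits named above other than Cox6b2.

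Much of the variation within the mitochondrial mRNAs came from single libraries. In het LPS+IFNγ replicate 1 (animal 1) mt-Co1 was at 11170 CPM, within the range of the other libraries, while mt-Cytb was at 569 CPM against 1264 to 4437 CPM elsewhere. There mt-Nd3 was at 42.2 CPM against 117 to 229 CPM elsewhere, and mt-Nd2 at 311 CPM against 467 to 1490 CPM. The ratio of mt-Co1 to mt-Cytb, copies included, was 19.6 in this library, beside 4.04 in the control library of the same animal. In the others it ran up to 7.37, in het LPS+IFNγ replicate 4. The share of mt-Co1 among mitochondrially encoded counts was 58.6% there, against 30.4 to 46.0% elsewhere. In KO replicate 5 (animal 10) most mitochondrial mRNAs were high in both states: mt-Cytb was at 3607 CPM with LPS+IFNγ and 4437 CPM as control, and mt-Nd4 at 3269 and 3681 CPM.

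**Figure D4:**
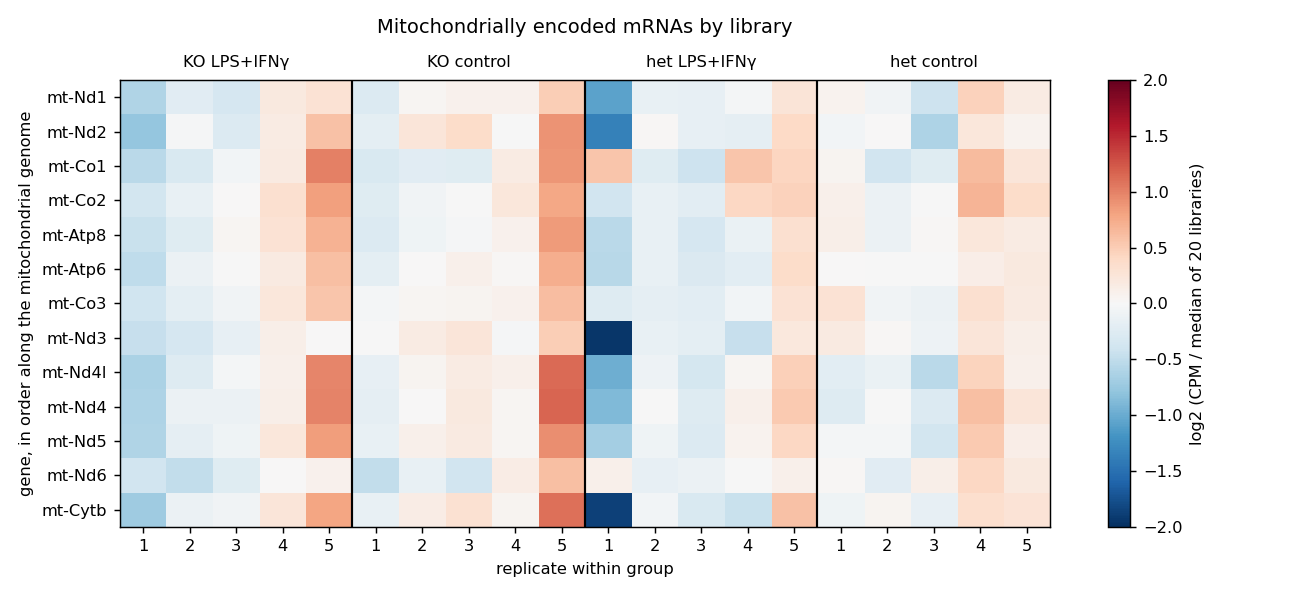
Mitochondrially encoded mRNAs with nuclear copies added, one row per gene and one column per library, as log2 of CPM over the gene's median across the 20 libraries. KO replicate 5 is high for most genes in both states, and het LPS+IFNγ replicate 1 is low for mt-Nd3, mt-Cytb and mt-Nd2 but not for mt-Co1.

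KO cells had slightly lower levels of most nuclear subunits than het cells in the control state, but no single gene passed the test. In control cells edgeR called 0 members in 20 or 16 libraries, where 0.0% of genes were called. At an unadjusted p under 0.05, 10 members in 20 libraries and 13 in 16 passed, of 499 and 774 genes, and limma-voom called 0 members in 20 libraries, where 0.0% of genes were called. DESeq2 also called 0 members there, where 0.0137% of genes were called, 0.00686% in each direction. The nuclear subunits had a median log2 fold change of −0.11 for KO over het controls (70 of 77 below 0) in 20 libraries and of −0.15 (70 of 77 below 0) in 16, beside 0.0020 and −0.0031 over all genes. The 13 mitochondrially encoded genes as listed had medians of 0.076 and 0.12, with 4 of 13 below 0 in both. That direction rests on KO control replicate 5 (animal 10): without it the median in the 20-library fit was −0.081, with 9 of 13 below 0. With copies, the mean sum of the KO controls was 24010.0 CPM, and 20501 CPM without that library, against 22518 CPM in het controls. With 16 libraries the KO mean was 24369 CPM, and 19809.6 CPM without it, against 22027 CPM in het controls. The sums of the nuclear subunits overlapped between KO and het controls.

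The lowest p among KO over het controls was that of Ndufa2, at −0.27 ± 0.07 (edgeR, unadjusted p = 0.00148, adjusted p = 0.999). Next came Uqcrh, at −0.24 ± 0.07, and Ndufb9, an accessory subunit of complex I, at −0.24 ± 0.08. Uqcrh was at 57.4 to 61.5 CPM in KO controls against 64.9 to 76.9 CPM in het controls, without overlap. In all, 7 members were lower in each KO control than in each het control (0.24% of genes), Atp5mpl, Ndufa2, Ndufaf6, Ndufb5, Ndufb9, Ndufs3 and Uqcrh, and none was higher (0.192% of genes). In 16 libraries 10 were lower without overlap (0.995% of genes). The het controls of animals 1 and 9 also had the highest summed proximal tubule markers, 626 and 538 CPM, against 36.6 to 144 CPM in KO controls and 52.3 to 58.9 CPM in the other het controls, and the highest nuclear subunit sums, 7540 and 7052 CPM. The part of this in the difference was not tested.

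Between KO and het cells with LPS+IFNγ, edgeR called 0 members in 20 or 16 libraries, where 0.0% of genes were called, and 0 members in 20 libraries and 1 in 16 had an unadjusted p under 0.05, of 366 and 787 genes. DESeq2 and limma-voom called 0 in 20 libraries. The nuclear subunits had a median of −0.031 (50 of 77 below 0) in 20 libraries and −0.058 (54 of 77) in 16, and the mitochondrially encoded genes as listed medians of 0.16 and 0.28, with 2 of 13 below 0. Without KO LPS+IFNγ replicate 5, also from animal 10, the medians in the 20-library fit were −0.038 for the mitochondrially encoded genes, with 9 of 13 below 0, and −0.0029 for the nuclear subunits, with 42 of 77 below 0. With copies, the mean mitochondrial sum of KO LPS+IFNγ libraries was 22727 CPM, and 19125 CPM without that library, against 21445 CPM in het LPS+IFNγ. With 16 libraries the KO mean was 22386 CPM, and 17469 CPM without it, against 19795.5 CPM in het LPS+IFNγ. The lowest p-values in 20 libraries were those of Sdhd, a membrane anchor of complex II, at −0.22 ± 0.12, Ndufaf6, at −0.59 ± 0.32, and Ndufab1, the mitochondrial acyl carrier protein, at −0.15 ± 0.09 (edgeR, unadjusted p = 0.0752, 0.0826 and 0.0971, adjusted p = 0.9996 each). No member stood apart without overlap, where 0.103% of genes were higher and 0.11% lower. The comparisons share libraries: those by genotype and those by stimulation draw on the same 4 groups.

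Other genes of the pathway were read in the 16 libraries, with calls among all genes as given above. Of 17 genes of mitochondrial biogenesis and mitochondrial DNA transcription, none was called in KO cells. In het cells Slirp, which stabilises mitochondrial mRNAs, rose by 0.49 ± 0.11 (edgeR, adjusted p = 0.0101), and Polg, the mitochondrial DNA polymerase, fell by 0.29 ± 0.08 (adjusted p = 0.0425), a call lost with the block by animal (edgeR, adjusted p = 0.0815). The list's medians were 0.086 in KO and −0.11 in het cells. Of 39 further assembly factors, with medians of 0.0088 in KO and −0.14 in het cells, Sdhaf2, which aids insertion of the flavin into Sdha, rose by 0.41 ± 0.09 in KO and 0.48 ± 0.09 in het cells (edgeR, adjusted p = 0.0122 and 0.00386). Cox14, an assembly factor of complex IV, fell by 0.44 ± 0.10 in KO cells (edgeR, adjusted p = 0.019). In het cells Foxred1, an assembly factor of complex I, rose by 0.57 ± 0.14, and Cox20, which aids maturation of the mt-Co2 protein, fell by 0.64 ± 0.19 (edgeR, adjusted p = 0.0184 and 0.0495).

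Among 16 electron carriers and entry enzymes, none was called in KO cells, and the medians were 0.030 in KO and 0.0021 in het cells. In het cells Sqor, which passes electrons from sulfide to ubiquinone, rose by 1.12 ± 0.30, and Etfb, a subunit of the electron transfer flavoprotein of fat oxidation, fell by 0.55 ± 0.14 (edgeR, adjusted p = 0.0362 and 0.0313). None of 13 citric acid cycle genes was called in either genotype by edgeR in 16 libraries. Their medians were −0.12 in KO (13 of 13 below 0) and −0.12 in het cells (11 of 13 below 0). Of 4 hypoxia-linked genes, with medians of 0.43 in KO and 0.53 in het cells, Pdk1, a kinase that restrains pyruvate entry into the cycle, rose by 1.38 ± 0.30 in KO and 1.17 ± 0.30 in het cells (edgeR, adjusted p = 0.0108 and 0.0264). With the block by animal in 16 libraries, edgeR called 1 biogenesis gene higher in KO and 2 higher in het cells. Of the assembly factors it called 1 higher and 2 lower in KO and 2 higher and 4 lower in het cells. Of the electron carriers it called 1 in each direction in KO and 2 in each direction in het cells, and of the citric acid cycle genes 1 lower in KO and 3 lower in het cells. Of the hypoxia-linked genes it called 2 higher in KO and 3 higher in het cells. In all 20 libraries none of these genes was called, and none was called between KO and het cells.

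The promoters of nuclear subunits held known motifs of respiratory genes more often than promoters at large, as a count of letters on both strands of 300-base windows. The core of NRF1, the 10-base palindrome in capitals in the Cox6a1 window, was in 7.04% of 71 member promoters (66 genes), against 0.971% of 32851 promoters of all genes. The ETS core CCGGAAG, which GABP can bind, was in 22.5% against 8.86%, and AAGATGGCG, a YY1 core, in 9.86% against 1.4%. The 3 promoters below are shown since Ndufs3 rose while Ndufa4 and Cox6a1 fell in some fits. They are RefSeq windows in GRCm38.p6, each on the minus strand: Ndufs3 at chr2:90904672-90904971, Cox6a1 at chr5:115348909-115349208 and Ndufa4 at chr6:11907401-11907700. Capitals mark the NRF1 and ETS cores on either strand, and the Ndufa4 window holds none of the 3 motifs.
Ndufs3: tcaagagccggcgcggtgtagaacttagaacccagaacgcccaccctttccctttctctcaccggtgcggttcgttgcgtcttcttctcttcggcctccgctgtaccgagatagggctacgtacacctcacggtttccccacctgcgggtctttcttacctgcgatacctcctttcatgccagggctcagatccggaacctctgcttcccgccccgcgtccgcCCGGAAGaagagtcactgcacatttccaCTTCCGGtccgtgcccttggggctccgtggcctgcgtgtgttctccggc
Cox6a1: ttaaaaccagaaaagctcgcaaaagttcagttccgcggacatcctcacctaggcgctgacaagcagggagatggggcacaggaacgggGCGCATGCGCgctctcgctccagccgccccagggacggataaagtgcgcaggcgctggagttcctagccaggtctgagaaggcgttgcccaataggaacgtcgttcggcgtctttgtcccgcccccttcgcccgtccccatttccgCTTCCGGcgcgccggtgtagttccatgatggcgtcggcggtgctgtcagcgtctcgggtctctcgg
Ndufa4: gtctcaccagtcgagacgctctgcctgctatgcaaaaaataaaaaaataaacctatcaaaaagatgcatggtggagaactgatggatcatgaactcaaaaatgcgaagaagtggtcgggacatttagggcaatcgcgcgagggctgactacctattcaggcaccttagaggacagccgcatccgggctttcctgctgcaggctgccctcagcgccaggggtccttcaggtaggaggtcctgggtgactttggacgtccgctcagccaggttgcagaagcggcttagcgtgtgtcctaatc
These matches describe letters, and nothing is drawn from them about the factors.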

How the data were processed

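The deposited table holds estimated counts per gene for 20 libraries, as whole numbers; per the submitters' processing notes the tools include DESeq2 1.45.3, R 4.4.1, Salmon 1.10.2 and FastQC 0.11.9, and the build is GRCm39, with no role given for each. The sources used here state neither the strand setting nor how transcripts were summed to genes. Libraries came from total RNA with a directional kit, per the labels. Depth was 12899528 to 20411411 counts per library, which limits the precision of low genes.

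Groups and replicate numbers came from the sample titles. An animal number is in the labels of every library, and nothing says whether cultures were separate, so a p-value here reflects spread among libraries that may be partly technical. Symbols, lengths and neighbours came from GENCODE M21 (GRCm38), and promoters and hairpins from RefSeq (GRCm38.p6). In R 4.3.3, edgeR 4.0.16 (TMM, filterByExpr, robust quasi-likelihood F test) was fitted to all genes with 4 group means, and p-values were adjusted over all genes tested. SE is the log2 fold change divided by the square root of F. It was tested on simulated data. The fit was repeated without the 4 libraries that go against their stimulation labels and with a block by animal, and with DESeq2 1.42.0 and limma-voom (limma 3.58.1). Complexes were described by summed CPM with no test. Nuclear copies of mitochondrial genes were found by shared 31-base stretches, after the data were seen. Values without KO replicate 5 or het LPS+IFNγ replicate 1 were likewise added after the data were seen.

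The members, the gene lists and the tests were chosen with earlier results of these data known. The text names the 13 mitochondrially encoded genes, called members (the 8 lowest p beyond 12), 2 abundant members of each complex, isoform pairs and the 3 lowest p in each comparison; 1 complex I gene that this names is not reported here. Animals supply the pairing, as 8 of 10 animals gave both libraries of 1 genotype. Deviations from group means correlated above 0.1 in 8 of 10 pairs of libraries of an animal, and 7 of 20 libraries matched their own animal best.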

Additional observations from a re-analysis of the deposited data

Results flagged for a closer look

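Values were compared within the 4 groups of 5 libraries, and a library is listed where its gap to the nearest other value exceeded 0.71 of the group's range. Of 180 groups of values examined 18 met this. Chance alone gives about 1 in 20 for independent groups. Many of these groups share genes and libraries, so that rate cannot judge the count. No difference between the KO and het responses was called for any of the 102 tested members in the 20 libraries.

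KO control replicate 5 (animal 10) stood apart by its summed mitochondrially encoded counts, 31090 CPM as listed and 38050 CPM with nuclear copies, and by their ratio to nuclear subunit counts, 5.70 and 6.98. In the same library mt-Cytb was at 4437 CPM, mt-Nd4 at 3681 CPM, mt-Nd5 at 2266 CPM, mt-Nd4l at 335 CPM and mt-Atp8 at 264 CPM. KO LPS+IFNγ replicate 5, from the same animal, stood apart by its ratio with copies of 6.95.

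Het LPS+IFNγ replicate 1 stood apart by its ratio of mt-Co1 to mt-Cytb, 18.7 as listed and 19.6 with copies. Het LPS+IFNγ replicate 2 was low in its nuclear complex IV sum, 844 CPM, and in Ndufb5, 27.7 CPM. Sdhd was high in het control replicate 1, at 99.2 CPM.

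Libraries that go against their stimulation labels made up the rest. Ndufa4 was at 105 CPM in the library labelled KO LPS+IFNγ replicate 4. AA467197 was at 34.7 CPM in the library labelled KO control replicate 4 and at 12.7 CPM in the library labelled het control replicate 5.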

How the results depend on the processing

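With all 20 libraries, 0 members were called in each comparison; under stimulation the count was 1 in KO and 4 in het cells in the 16 libraries. It was 4 and 26 in the 16 libraries with the replicate block by animal (also with nuclear copies added), and 2 in het cells with DESeq2 in all 20. Leaving out 1 library gave 0 to 1 calls in KO (1 without KO LPS+IFNγ replicate 4) and 0 to 2 in het cells (2 without het LPS+IFNγ replicate 5). Within the 16 libraries DESeq2 called 9 members in KO and 14 in het cells, and DESeq2's size factors 3 in KO, with shares of all genes given above. Leaving out 1 of the 16 gave 1 to 3 calls in KO (3 without het LPS+IFNγ replicate 1, 2 without KO LPS+IFNγ replicate 1, KO control replicate 5, het LPS+IFNγ replicates 2 or 3 or het control replicate 3) and 1 to 5 in het cells (1 without het control replicate 2, 2 without het control replicates 1 or 4 or het LPS+IFNγ replicate 2). Shares of all genes called are not given for the fits that leave out 1 library. Those counts therefore cannot tell a change in the members from a change over all genes. With plain library totals the het log2 ratios of sums were −0.23 for nuclear subunits, −0.22 for complex I and −0.23 for complex IV, where the median of all genes also shifted to −0.12 from −0.016 with TMM. Not called in any of these, mt-Co1 in KO turned to −0.055 with the animal block, and mt-Co2 in het to −0.14 in 16 libraries, −0.055 with a block by replicate number and −0.0036 with DESeq2 or its size factors. Of 262 alternatives for 49 gene results, 250 kept direction and side of the threshold, 7 passed where the main result did not and 5 turned direction. The calls that the block by animal changed, in members and in the other gene lists, are given in the report. Depth limits low members such as Cox6b2.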
